A study of Mus musculus with 8 samples.

Results

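The miRNAs described here are those named miR-297, miR-466, miR-467 and miR-669, which the mouse genome encodes for the most part inside an intron of Sfmbt2. They were picked out by name, with earlier results of these data known, and 31 of the 387 mature miRNAs in the sperm small RNA count table carried such a name. The table held 8 libraries in groups of 4, named Trained and Exposed, from F0 sperm of C57BL/6 mice 2 months old. The treatments concern smell, and the sources used here say no more of them, apart from the table's heading, which sets F0Exposed against AceTrained. Both groups share strain, age and tissue, and no untreated group was analysed here. Whether each library came from its own animal or from pooled animals is not stated, so the tests rest on a spread between libraries that may be technical.

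A miRNA is cut from a hairpin precursor as a 5p or a 3p arm, and the arm that is loaded onto an Argonaute protein represses messenger RNAs that match its seed, the bases near its 5′ end. Sfmbt2 encodes a Polycomb group protein and is an imprinted gene expressed from the paternal allele in the extraembryonic tissues of the mouse. The miRNA cluster in its intron is known from rodents, arose by repeated duplication, and in the mouse is needed for normal growth of the placenta. Many of its hairpins are near-identical copies of each other, so how reads were divided between members with like sequences is uncertain.

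The members are here called by the host gene because the annotation bore that name out for nearly all of them. On GRCm38, Sfmbt2 lies on chromosome 2 from 10370510 to 10595253 on the plus strand. Hairpin genes were found by name for 30 of the 31 members, and these members had 57 hairpin genes in all. Of these, 56 lay in intron 11 of the principal Sfmbt2 transcript, which has 23 exons, in a stretch of 51.1 kb from 10467229 to 10518279. The exception was Mir297-1, one of 4 hairpins that can give miR-297a-3p, on chromosome 7 from 10958437 to 10958512. No hairpin gene of its name was matched for miR-466a-3p.

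Library totals were 250458, 260685, 261903 and 239664 counts in Trained 1 to 4, and 241885, 208900, 254944 and 193013 counts in Exposed 1 to 4. One read was therefore worth 3.82 to 5.18 counts per 1000000 counts of the library total (CPM), the unit of every level given here. Markers of male germ cells, among them miR-34c-5p and miR-881-3p, were all listed (8 of 8) and had a summed level of 288118 to 343802 CPM in Trained, against 323612 to 333025 CPM in Exposed. Libraries stood apart in miRNAs of other cell types. Trained 3 had the highest summed level of 5 red blood cell miRNAs, with 19675 CPM against at most 7507 CPM elsewhere, and of 4 leukocyte miRNAs, with 5139 CPM against at most 2299 CPM. Exposed 2 had the highest level of 5 smooth muscle and stroma miRNAs, with 15491 CPM against at most 10307 CPM. In bulk sperm RNA, fewer cells of a type and less RNA per cell cannot be told apart.

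One member carried most of the reads. Of 41691 counts assigned to the cluster over all libraries, 36632 were miR-669c-5p, or 87.9% (95% Wilson interval 87.5% to 88.2%, which covers counting error only). miR-669c-5p, a mouse miRNA described elsewhere as rising in ageing liver, ranked 14 of 387 in the table by mean level. It was the first member of the cluster in 8 of 8 libraries. The next member was miR-467e-5p, which ranked 95 and lay 29.7-fold below it. The remaining 30 members shared 5059 counts.

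The 13 members named miR-669 held 90.8% of the cluster's counts, and the 7 named miR-467 held 7.98%. The 9 named miR-466 held 0.955%, and the 2 named miR-297 held 0.228%. Without miR-669c-5p the order changed, with 65.7% of the remaining counts in miR-467, 24.5% in miR-669, 7.87% in miR-466 and 1.88% in miR-297.

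**Figure D1:**
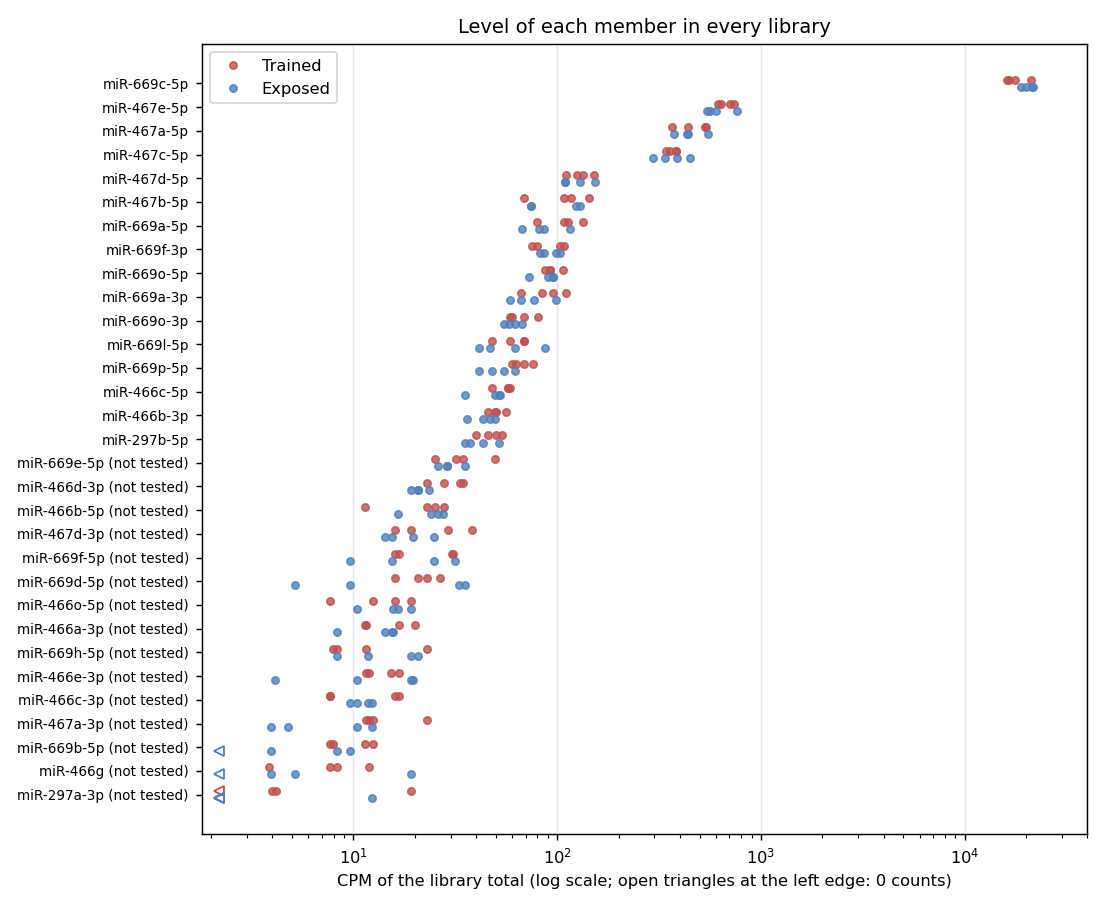
Level of each of the 31 members in CPM of the library total (log axis), 1 point per library, Trained in red and Exposed in blue. miR-669c-5p stands alone near the right edge, followed by miR-467e-5p, miR-467a-5p and miR-467c-5p, and the 15 members that were too low to test lie below 50 CPM in every library.

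Outside miR-669c-5p the levels formed a slope, with 3 miR-467 members in front. miR-467e-5p stood at 635, 702, 737 and 613 CPM in Trained 1 to 4 and at 765, 546, 600.1 and 565 CPM in Exposed 1 to 4. Exposed 1 was the highest library and the other Exposed libraries lay below all Trained ones. miR-467a-5p, which 10 hairpins can give, stood at 539, 437, 367 and 534 CPM in Trained 1 to 4 and at 434, 551, 373 and 440.4 CPM in Exposed 1 to 4. The groups covered nearly the same range, and the lowest library was Trained 3. miR-467c-5p stood at 383, 384, 359 and 342 CPM in Trained 1 to 4 and at 446, 388, 294 and 337 CPM in Exposed 1 to 4. All Trained libraries lay inside the Exposed range. miR-467d-5p stood at 152, 134, 111 and 125 CPM in Trained 1 to 4 and at 153, 129, 109.8 and 109 CPM in Exposed 1 to 4, again with overlapping groups. Group means ran from 672 ± 57.5 CPM in Trained, against 619 ± 99.9 CPM in Exposed, for miR-467e-5p to 130.5 ± 17.2 CPM in Trained, against 125 ± 20.8 CPM in Exposed, for miR-467d-5p (SD, n = 4 each). Over all libraries the range of miR-467a-5p overlapped at its upper edge with that of miR-467e-5p and in its lower part with that of miR-467c-5p, and miR-467d-5p lay apart below these.

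The other 11 tested members had means over all libraries between 44.6 CPM for miR-297b-5p and 104.9 CPM for miR-467b-5p. Between neighbours in this order the ranges over libraries overlapped, for example miR-669f-3p and miR-669o-5p at 92.0 and 91.5 CPM. The 15 members that failed the count filter held 473 counts together, from 10 counts for miR-297a-3p to 63 for miR-669e-5p over 8 libraries. The highest of these were miR-669e-5p (32.5 CPM), miR-466d-3p (25.3 CPM), miR-466b-5p (22.7 CPM) and miR-467d-3p (22.1 CPM). In all, 28 of the 31 members had at least 1 read in every library, and 13 never reached 10 reads in any.

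The order of the levels did not follow the number of hairpins matched by name. miR-669c-5p, miR-467e-5p and miR-467c-5p have 1 hairpin each, whereas both arms of miR-669a, which has 12 hairpins, stood at 98.0 CPM (5p) and 82.2 CPM (3p). Mir669c lies from 10509296 to 10509404 in the 3′ part of the stretch, 138.8 kb from the start of Sfmbt2. Its nearest neighbours among hairpins of listed members are Mir669a-2, 0.76 kb after it, and Mir467d, 1.58 kb before it. miR-467d-5p and miR-467d-3p from that neighbour averaged 128 and 22.1 CPM, and Mir297b, 2.26 kb after Mir669c, gave miR-297b-5p at 44.6 CPM. By name, the high level was thus that of a member with 1 hairpin, within a few kilobases of hairpins whose members had far lower counts. How reads were divided between like sequences is not known, so the hairpin that gave these reads was not tested.

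**Figure D2:**
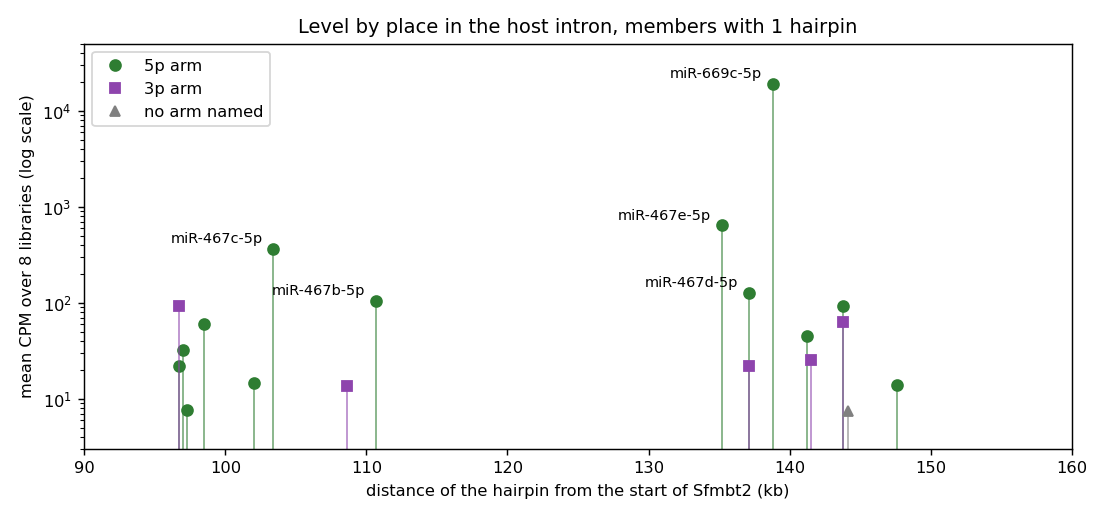
Mean level over 8 libraries (log axis, CPM of the library total) against the distance of the hairpin from the start of Sfmbt2 in kb, for the 19 members with 1 hairpin matched by name. Circles are 5p arms, squares 3p arms and the triangle a member with no arm in its name, and miR-669c-5p at 138.8 kb rises above members on both sides.

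Arm use was led by the 5p arm. The 31 names comprised 19 5p arms, 11 3p arms and 1 without an arm (miR-466g), and 98.2% of the counts of named arms were 5p. This share was 98.0% ± 0.388 in Trained and 98.4% ± 0.130 in Exposed (SD, n = 4 each), with 3 Trained libraries below all Exposed ones. As miR-669c-5p enters this share and no 3p arm of miR-669c was listed, the share moves with that member's level. Over hairpin names with both arms listed, the mean 5p share was 72.0% in Trained and 73.0% in Exposed. Without miR-669c-5p it was 84.8% ± 1.70 in Trained and 85.7% ± 1.32 in Exposed, a difference smaller than the spread within either group. The lowest library was Trained 3, with 82.3% (95% Wilson interval 79.4% to 84.9%).

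Both arms were listed for 7 hairpin names, and by the counts as assigned the preferred arm differed between them. How reads were divided between names with like sequences is not known, so the arm preference of a single hairpin was not tested. Pooled over all libraries, the 5p arm took 97.5% of the counts of miR-467a (873 of 5p and 22 of 3p), 85.1% of miR-467d (245 and 43) and 81.7% of miR-466c (98 and 22). It took 59.1% of miR-669o (176 and 122) and 54.8% of miR-669a (190 and 157), whose 95% Wilson interval of 49.5% to 59.9% includes an even split. The 3p arm led in miR-466b (43 of 5p and 91 of 3p, 32.1% 5p) and miR-669f (43 and 176, 19.6% 5p). In each of the 7, the 95% Wilson intervals of the pooled 5p shares of Trained and Exposed overlapped. These intervals cover counting error only and leave out the spread between libraries, so their overlap is no test of the groups. The widest gap was that of miR-466b, with 30.1% in Trained and 34.4% in Exposed. By library its 5p share ran from 18.8% to 35.3% in Trained and from 25% to 41.7% in Exposed.

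**Figure D3:**
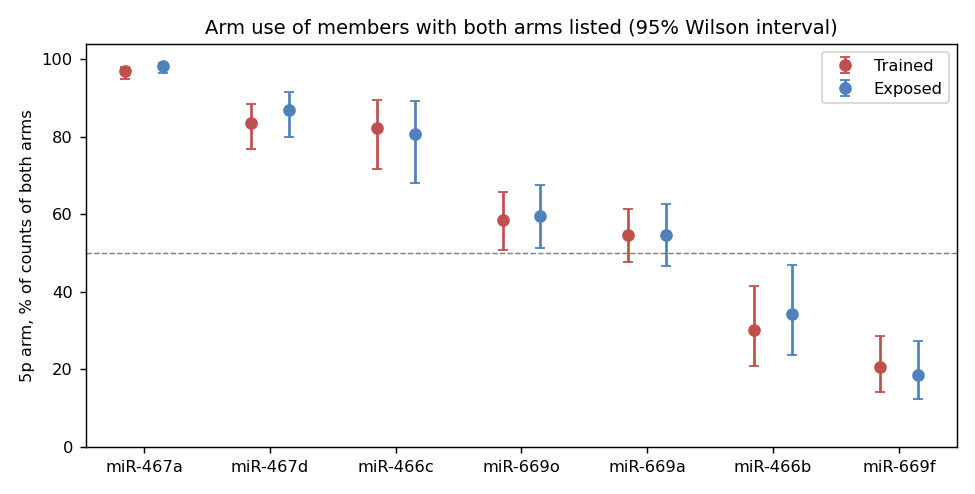
Share of the 5p arm in the counts of both arms (%), pooled over the 4 libraries of each group, for the 7 hairpin names with both arms listed, Trained left of Exposed. Bars are 95% Wilson intervals, which cover counting error only, and the share runs from over 96% for miR-467a to under 21% for miR-669f in both groups.

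Trained was set against Exposed to ask whether the members differed between the treatments. The most abundant member and the rest of the cluster had differences of opposite sign. miR-669c-5p stood at 17704, 21087, 16174 and 16452 CPM in Trained 1 to 4 and at 21332, 18913, 21726 and 20061 CPM in Exposed 1 to 4. In this miRNA 3 Trained libraries lay below all Exposed ones, and Trained 2 lay inside the Exposed range. The mean was 17854 ± 2255 CPM in Trained, against 20508 ± 1279 CPM in Exposed (SD, n = 4 each). Its log2 fold change, Trained over Exposed, was -0.23 (SE 0.11, 95% interval -0.49 to 0.02) and did not pass the test (FDR = 0.998, edgeR quasi-likelihood test). The level in Trained was thus between 0.713 and 1.02 times that in Exposed by this interval. Without Exposed 2 and Trained 3 the log2 fold change was -0.17. Trained 3, the lowest library in miR-669c-5p, was also the lowest in the germ cell markers and the highest in red blood cell and leukocyte miRNAs, and the part of this in the result was not tested. Mean summed levels, described without a test, were also lower in Trained for the miRNAs of striated muscle, 4 of 4 listed, at 1533 ± 263 CPM in Trained, against 2231 ± 587 CPM in Exposed, and of smooth muscle and stroma, 5 of 6 listed, at 7866 ± 552 CPM in Trained, against 10732 ± 3304 CPM in Exposed (SD, n = 4 each). In both lists Trained 2, 3 and 4 lay below all Exposed libraries and Trained 1 lay inside their range, and none of the listed markers was at 0 in any library. The part of these in the result was not tested either.

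The other 30 members summed to 2743, 2773, 2791 and 2666 CPM in Trained 1 to 4 and to 2828, 2614, 2302 and 2394 CPM in Exposed 1 to 4. The Trained libraries were close together and all lay inside the Exposed range, at 2743 ± 55.2 CPM in Trained, against 2534 ± 235 CPM in Exposed (SD, n = 4 each). The mean of miR-669c-5p was 2654 CPM lower in Trained than in Exposed, and that of the other members together was 209 CPM higher. The sum over all 31 members therefore followed miR-669c-5p, with 20447, 23860, 18965 and 19118 CPM in Trained 1 to 4 and 24160, 21527, 24029 and 22454 CPM in Exposed 1 to 4. The mean sum was 20598 ± 2275 CPM in Trained, against 23043 ± 1273 CPM in Exposed (SD, n = 4 each), or 2.06% and 2.30% of the library totals. Again Trained 2 was the library that lay inside the Exposed range. As a score over the chosen members the sum was not tested.

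A ratio within a library does not depend on how libraries are scaled. The counts of miR-669c-5p over those of the other 30 members came to 6.45, 7.60, 5.79 and 6.17 in Trained 1 to 4 and to 7.54, 7.24, 9.44 and 8.38 in Exposed 1 to 4. The mean was 6.51 ± 0.780 in Trained and 8.15 ± 0.985 in Exposed (SD, n = 4 each), and Trained 2 overlapped with Exposed 1 and 2. The share of miR-669c-5p in the members' counts was lowest in Trained 3, at 85.3% (95% Wilson interval 84.3% to 86.2%), and highest in Exposed 3, at 90.4% (89.7% to 91.1%). These libraries were picked as the extremes and the intervals cover counting error only, so their distance does not measure a difference between the groups. The difference between the groups was not tested.

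**Figure D4:**
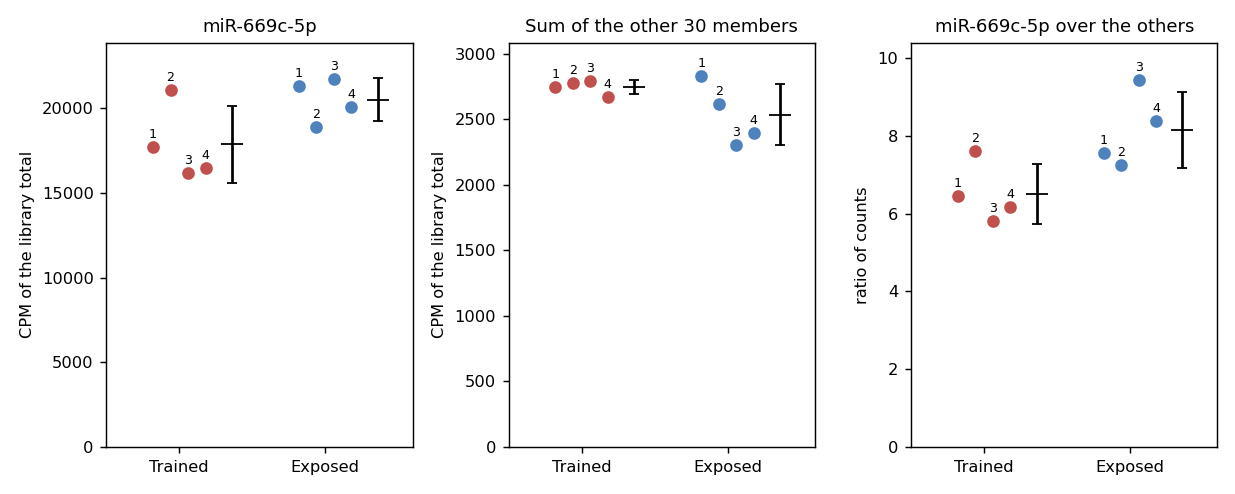
Level of miR-669c-5p (left) and of the other 30 members summed (middle), in CPM of the library total, and the ratio of their counts (right). Points are libraries with their replicate number, Trained left of Exposed, with bars for the mean ± SD (n = 4). The Trained points of miR-669c-5p lie lower except Trained 2, and the summed points of the others lie within the Exposed range.

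None of the tested members passed. Of the 31 members 16 passed the count filter, and of these 0 passed an FDR of 0.05 and 0 had an unadjusted p under 0.05 by edgeR's quasi-likelihood test. Over all 226 tested miRNAs these shares were 0% and 4.42%. DESeq2 also called 0 members and gave 1 an unadjusted p under 0.05, miR-669c-5p, and limma-voom called 0 and gave 0. The groups did not overlap in CPM for 0 of the 16 members, where all Trained libraries lay above all Exposed ones for 0.885% of the 226 miRNAs and below them for 1.33%.

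The fitted values were above 0 in 13 of the 16 members, against 51.8% of the 226 tested miRNAs, and the median log2 fold change was 0.09 against 0.00 for all tested miRNAs. The 13 of 16 became 9 of 16 without Exposed 3 and 10 of 16 with upper quartile scaling. Members with like sequences may share reads, so their directions are not separate observations. By family the values above 0 were 6 of 8 for miR-669, 4 of 5 for miR-467, 2 of 2 for miR-466 and 1 of 1 for miR-297, and with upper quartile scaling miR-467a-5p, miR-467d-5p and miR-669l-5p lay below 0. The 3 values below 0, a direction found in 48.2% of the 226 miRNAs, were those of miR-669c-5p, miR-669f-3p (-0.04) and miR-467c-5p (-0.03), and miR-669l-5p lay at 0.00. The sign of miR-467c-5p turned with library totals alone (0.0030), and that of miR-669l-5p also with RLE scaling.

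The smallest unadjusted p on the higher side was that of miR-669p-5p, at 59.9, 69.0, 76.4 and 62.6 CPM in Trained 1 to 4 and at 62.0, 47.9, 54.9 and 41.4 CPM in Exposed 1 to 4. In 3 Trained libraries it lay above all Exposed ones, on 15 to 20 reads per Trained library and 8 to 15 per Exposed library. Its log2 fold change was 0.33 (SE 0.26, FDR = 0.998, edgeR quasi-likelihood test), with a 95% interval of -0.25 to 0.91. Next were both arms of miR-669a, a miRNA reported to restrain skeletal muscle differentiation in mouse cardiac progenitors. The log2 fold change was 0.26 (SE 0.21) for miR-669a-5p and 0.24 (SE 0.21) for miR-669a-3p. miR-669a-5p averaged 108 ± 22.1 CPM in Trained, against 87.7 ± 20.4 CPM in Exposed, while miR-669a-3p averaged 89.3 ± 18.6 CPM in Trained, against 75.0 ± 17.2 CPM in Exposed (SD, n = 4 each). For both arms the highest library was Trained 3. miR-466c-5p (0.20), miR-297b-5p (0.16), miR-466b-3p (0.15), miR-669o-3p (0.12), miR-467b-5p (0.10), miR-467e-5p (0.09), miR-669o-5p (0.06), miR-467a-5p (0.03) and miR-467d-5p (0.02) followed on the log2 scale.

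**Figure D5:**
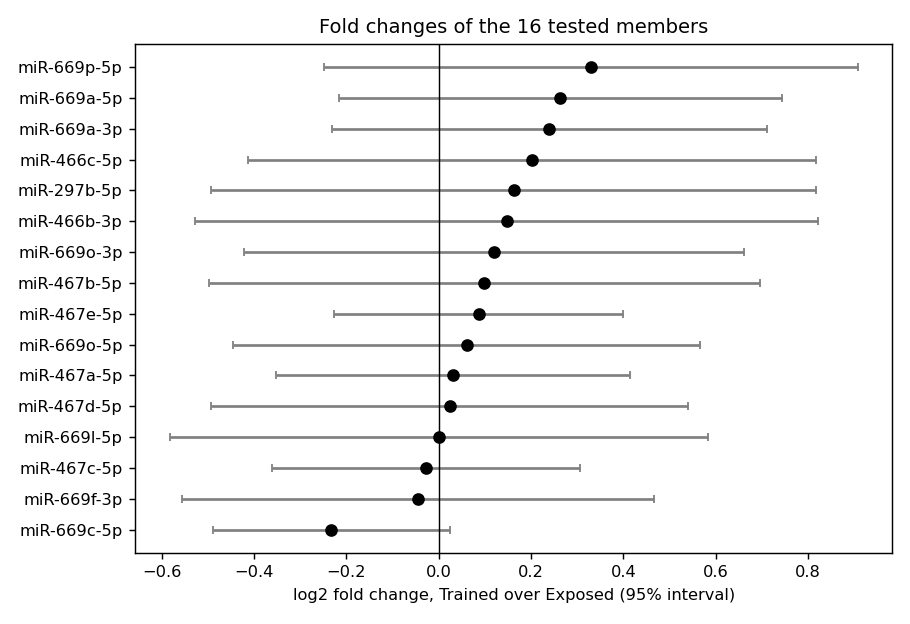
Fitted log2 fold change, Trained over Exposed, of the 16 tested members with 95% intervals from the edgeR quasi-likelihood fit. Every interval includes 0, from miR-669p-5p at 0.33 down to miR-669c-5p at -0.23, which has the narrowest interval.

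The interval was narrowest for the member with the most reads. The half-width of the 95% interval on the log2 scale was 0.26 for miR-669c-5p and reached 0.67 for miR-466b-3p, with a median of 0.51 over the 16 members and 0.45 over all 226 tested miRNAs. The order did not follow the reads throughout, since miR-467b-5p, with 198 counts over the 8 libraries, had a half-width of 0.60 and miR-669a-3p, with 157 counts, one of 0.47. Between libraries of one group, the variance of miR-669c-5p was 45.6 times that of counting alone, so counting error was a small part of its spread. For the other 15 tested members this factor lay between 0.122 and 3.26, with a median of 0.689, and was under 1 for 10 of them. The median over all 226 tested miRNAs was 3.03. At a like relative spread the factor rises with the reads, so it does not rank members by their relative spread. The SD of miR-669c-5p was 12.6% of its mean in Trained and 6.24% in Exposed.

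The authors' deposited table gave an unadjusted p-value under 0.05 to 1 of the 31 members, against 20 of all 387 miRNAs. It was miR-467a-3p (log2 fold change 0.83, p-value 0.0439, FDR 0.896 in the authors' deposited table), at the authors' mean count of 3.75 in Trained and 1.75 in Exposed. It failed the count filter used here. The authors' deposited table gave miR-669c-5p a log2 fold change of -0.22 and a p-value of 0.385.

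Set beside other miRNA clusters, the concentration on a single member was the highest of the 4 lists compared, which are described without a test. The most abundant member held 87.9% of counts here, 51.7% in the X-linked miR-506 related set (miR-881-3p), 49.95% in the miR-465 family (miR-465b-5p) and 48.1% in the miR-290 to miR-295 cluster (miR-293-5p). The second member held 2.98% here and 29.5% in the miR-465 family (miR-465c-5p). The 5p share was 98.2% here, 80.9% in the miR-465 family, 73.5% in the miR-290 to miR-295 cluster and 18.8% in the X-linked miR-506 related set. The share here includes miR-669c-5p, whose 3p arm was not listed, and was 85.2% without that member. Fitted values were above 0 in 13 of 16 tested members here, in 3 of 3 of the miR-290 to miR-295 cluster, in 1 of 7 of the miR-465 family and in 9 of 20 of the miR-506 related set. The median log2 fold change was 0.09 here, 0.12 in the miR-290 to miR-295 cluster, -0.13 in the miR-465 family and -0.02 in the miR-506 related set.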

How the data were processed

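Per the labels' protocols, a Qiagen miRNeasy kit gave the sperm RNA, which was sequenced as 50 nt single-end reads on a NextSeq500. The values are raw read counts per mature miRNA, as deposited by the authors. Trimming, aligner, miRNA reference, build and how reads that match several hairpins were assigned: not given in the sources used here. Other columns of the authors' deposited table are group mean counts (used as a score), log2 fold changes and p-values. The submitters' processing notes name edgeR.

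Groups and replicate numbers come from sample titles. Levels are counts scaled by the library total. Trained was compared with Exposed by edgeR 4.0.16 (R 4.3.3) on the whole table, with TMM factors, the default count filter by group, robust two-sided quasi-likelihood F tests and Benjamini-Hochberg adjustment over 226 miRNAs. The method was tested on simulated data, where it called a share of 0.72 of 2-fold changes and 0.974 of 4-fold changes. Smaller changes, such as those fitted for the members, were not simulated. Sums, ratios, arm shares and lists are described without a test. All members that passed the filter are named, with the 4 highest of the others and those with both arms listed. Members, lists and tests were chosen with earlier results of these data known. Hairpin positions are from RefSeq genes and GENCODE on GRCm38, by name. Wilson intervals cover counting error only, intervals of fold changes also the spread between libraries, and no molecular identifiers are described for the reads.

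Alternatives were RLE, upper quartile and library-total scaling, no filter, 10 CPM in 4 libraries, DESeq2 1.42.0, limma-voom (limma 3.58.1), a fit that was not robust, a block for replicate number, leaving out each library, and, chosen after seeing the data, leaving out Exposed 2 with Trained 3.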

Additional observations from a re-analysis of the deposited data

Results flagged for a closer look

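Within the groups of 4, 66 sets of values were checked for a library far from the others, and 2 had one, where chance alone gives about 1 in 20 for separate sets. The sets here were not separate, since sums, shares and ratios were built from the same members. The 5p share without miR-669c-5p was 82.3% in Trained 3, apart from 85.3% to 85.9% in the other Trained libraries. Trained 3 also had the highest summed level of 3p members, 493 CPM, and the highest red blood cell and leukocyte miRNAs, whose part in this was not tested. The level of miR-466c-5p was 47.9 CPM in Trained 1, apart from 57.3 to 58.4 CPM in the other Trained libraries, on 12 to 15 reads per library.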

How the results depend on the processing

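No member passed FDR 0.05 in any of the 18 other fits, and the smallest FDR of a member was 0.715. miR-669c-5p stayed below 0 in all of them (-0.30 to -0.16 on the log2 scale, FDR of 0.752 or more), with an unadjusted p under 0.05 by DESeq2 and, without Trained 2, by edgeR. The count of members above 0 was 24 of 31 with no filter and 21 of 28 with the 10 CPM filter, where more members were tested, and 9 to 14 of 16 when 1 library was left out. The members' median log2 fold change was 0.08 to 0.14 when 1 library was left out. The summed level kept its sign with TMM, RLE and totals without the 10 most abundant miRNAs and without any 1 library (-0.24 to -0.12), as did the sum without miR-669c-5p (0.07 to 0.17). The difference in 5p share, -0.47 percentage points, was -1.01 over hairpins with both arms listed and -0.83 without miR-669c-5p, and -0.58 to -0.29 when 1 library was left out. Single members near 0 turned sign: miR-669l-5p with RLE (-0.0043), upper quartile (-0.056) and DESeq2 (-0.0026), miR-467d-5p (-0.017) and miR-467a-5p (-0.0020) with upper quartile factors, and miR-467c-5p with library totals (0.0030) and without Exposed 2 and Trained 3 (0.066); the cause was not tested. Leaving out 1 library gave -0.040 to 0.16 for miR-467a-5p, -0.046 to 0.30 for miR-467b-5p (0.47 without Exposed 2 and Trained 3), -0.11 to 0.084 for miR-467c-5p, -0.041 to 0.14 for miR-467d-5p, -0.11 to 0.036 for miR-669f-3p and -0.11 to 0.25 for miR-669l-5p. With the replicate number as a block, 0 miRNAs were called, 13 of 16 members lay above 0 and miR-669c-5p stood at -0.24. Same-numbered libraries deviated together in 3 of 4 numbers (correlations 0.66, 0.69 and 0.49), and Trained 2, 3 and 4 each correlated best with their own number. Trained 1 did not (-0.41, against 0.25 with Exposed 2), nor did Exposed 1 (0.39 with Trained 2) or Exposed 4 (0.49, against 0.60 with Trained 3). As 1 pair failed, and the labels name no shared source, the numbers were not taken as pairs. Of the 31 members 27 averaged 30.6 reads or fewer per library, which limits what can be seen in them.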

Other observations

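At mean counts from 1.25 to 30.6 reads, 27 members varied between libraries of one group with a median of 0.488 times the variance that counting alone gives, and 205 other miRNAs of the table in that range with a median of 0.653 times. The factor was under 0.5 for 14 of the 27 members (51.9%) and for 77 of the 205 others (37.6%). Both medians lay below the variance of counting alone, and the cause was not tested. Members with like sequences may share reads, so they are not separate observations. The members that failed the count filter summed to 264 ± 36.2 CPM in Trained, against 226 ± 27.8 CPM in Exposed (SD, n = 4 each), with overlapping libraries, and Trained 3 was the highest at 317 CPM.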
